A study of Mus musculus with 12 samples.

Results

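The genes described here are 8 genes that mature pancreatic beta cells normally keep low or that return when beta cells lose their identity: Ldha, Slc16a1, Hk1, Acot7, Oat, Mylk, Aldh1a3 and Neurog3. They were chosen by name, and every probe set annotated to 1 of them alone was taken, which gave 15 of the 45101 probe sets on the array and 8 of the 18193 genes named there. RNA from C57BL6 mice was hybridised to 12 Affymetrix mouse expression arrays in 4 groups of 3: wild-type mice on normal food (WT normal), Sgpp2-/- mice on normal food (KO normal), wild-type mice on high-fat food (WT high-fat) and Sgpp2-/- mice on high-fat food (KO high-fat). Sgpp2 encodes an endoplasmic reticulum phosphatase that removes the phosphate from sphingosine-1-phosphate, a signalling lipid, and the series title concerns stress of the endoplasmic reticulum and proliferation in islet beta cells. The labels give no sex, age, duration of feeding or design of the Sgpp2 allele, and no tissue, which is named in the title alone. They do not say that the arrays of a group came from separate animals, so p-values measure only the spread between these arrays, which may be technical.

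A disallowed gene is one that most tissues express and that mature beta cells repress. Repression of lactate dehydrogenase and of the monocarboxylate transporter keeps pyruvate in the mitochondria and stops blood lactate or pyruvate from triggering insulin release, and repression of the high-affinity hexokinase leaves glucose sensing to glucokinase. Aldh1a3 and Neurog3 stand for another state: Neurog3 is the transcription factor that starts endocrine development, and both genes are used as markers of beta cells that have dedifferentiated in models of diabetes.

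All values are log2 RMA values, in which 1 unit is a factor of 2, and a difference is the mean of KO or high-fat arrays minus that of WT or normal-diet arrays. Array medians ran from 7.005 to 7.13, and 75.9% to 77.3% of the probe sets of an array exceeded 5. The Sgpp2 probe set read 11.46 to 11.63 on the 6 WT arrays and 10.995 to 11.17 on the 6 KO arrays, with no overlap. The difference averaged over diets was -0.46 (SE 0.05, limma adjusted p = 0.0033), a 1.38-fold lower signal, and the labels do not state whether the deletion covers this probe set. Genes of mature beta cells were measured on every array, with a mean over 16 genes of 12.74 to 12.98, and so were 10 genes of acinar cells, the enzyme-secreting cells of the exocrine pancreas, with a mean of 12.07 to 12.77.

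None of the 8 genes passed an adjusted p of 0.05 in limma in any of 7 comparisons. The share of all 15237 genes tested that passed was 0.84% for KO against WT on the normal diet, 0.0263% for KO against WT on the high-fat diet and 6.32% for KO against WT averaged over diets. For high-fat against normal diet it was 0.0788% in WT, 0% in KO and 0.197% averaged over genotypes, and for the interaction of genotype and diet it was 0%. At an unadjusted p under 0.05 the members counted 1, 1 and 1 of 8 in the genotype comparisons in that order, beside 22.1%, 13.4% and 28.6% of all genes. In the diet comparisons they counted 2 in WT, 1 in KO and 3 in the average, beside 11.1%, 7.7% and 13.6%, and in the interaction 1, beside 4.97%. The median difference of the 8 genes was -0.15 for KO against WT on the normal diet (all genes -0.05), -0.13 on the high-fat diet (all genes -0.03), -0.20 for the diet in WT (all genes -0.02) and -0.14 for the diet in KO (all genes -0.01). Of the group differences of these genes, the largest in size belonged to Aldh1a3 and Neurog3, in opposite directions. Of the 15 member probe sets, 14 were tested one by one and 0 passed in limma in any comparison. The share of all 28689 probe sets that passed was 1.9%, 0.282% and 10.1% in the genotype comparisons in the order above, 0.0488% for the diet in WT, 0% in KO, 0.146% averaged over genotypes and 0% for the interaction. Ordered by group mean, Ldha, Hk1, Acot7 and Oat each ran from WT normal through KO normal and WT high-fat to KO high-fat, and neighbouring groups overlapped for all of them except KO normal above WT high-fat for Hk1. The order was WT high-fat, WT normal, KO high-fat and KO normal for Slc16a1, and KO high-fat, KO normal, WT high-fat and WT normal for Mylk, with every neighbour overlapping.

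**Figure D1:**
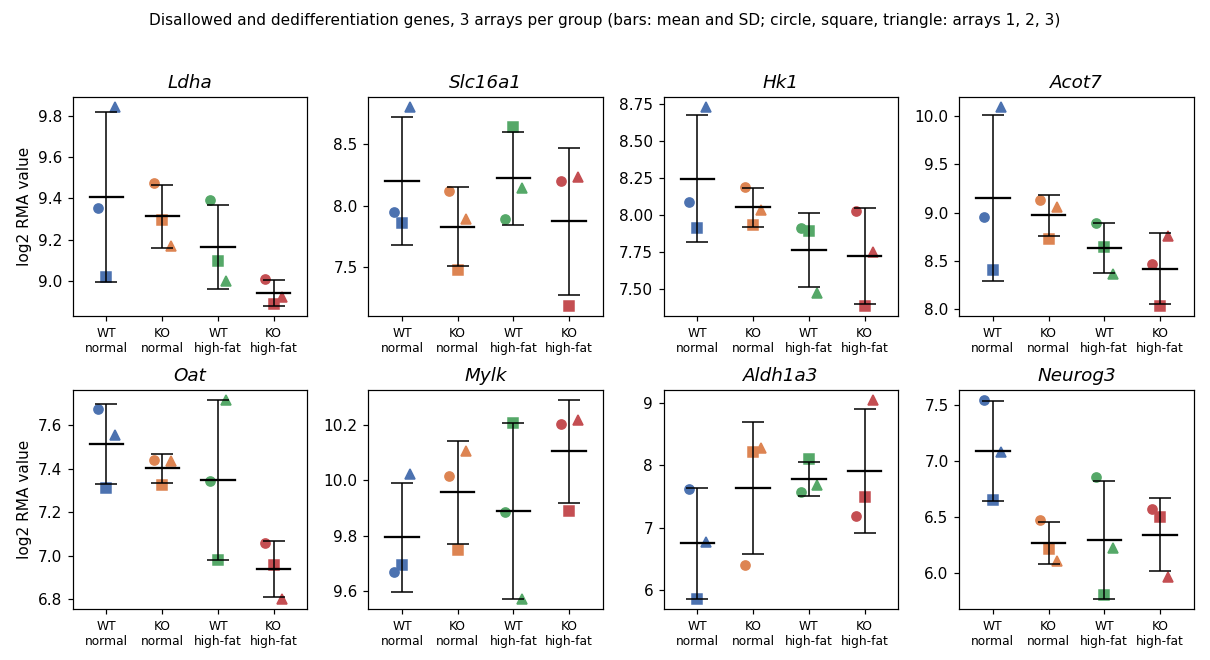
Log2 RMA value (y axis) of the brightest probe set of each of the 8 genes on each array, by group (x axis); circles, squares and triangles are arrays 1, 2 and 3, thick lines the group mean and bars 1 SD (n = 3). WT normal array 3 was the highest array for Ldha, Slc16a1, Hk1 and Acot7, and Neurog3 was higher on the 3 WT normal arrays than on the 3 KO normal arrays.

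Ldha encodes the A subunit of lactate dehydrogenase, which turns pyruvate into lactate. Its only probe set (1419737_a_at) read 9.35, 9.02 and 9.84 on WT normal arrays 1, 2 and 3, and 9.47, 9.30 and 9.17 on KO normal arrays. On the high-fat diet it read 9.39, 9.10 and 9.00 in WT and 9.01, 8.89 and 8.92 in KO. The 3 KO high-fat arrays lay below all 3 KO normal arrays, whereas the groups overlapped in the other 3 comparisons of 2 groups. Among all genes, 6.71% were lower without overlap in this comparison, and 2 of the 8 members were, Ldha and Oat. For Ldha the difference was -0.37 (SE 0.18, 95% interval -0.76 to 0.02, limma adjusted p = 0.667). Averaged over genotypes the diet difference was -0.31 (SE 0.13, limma adjusted p = 0.325) and averaged over diets the genotype difference was -0.16 (SE 0.13, limma adjusted p = 0.423). Without WT normal array 3 these averages were -0.20 and -0.049.

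Slc16a1 encodes monocarboxylate transporter 1, which carries lactate and pyruvate across the plasma membrane. Its brighter probe set (1415802_at) read 7.95, 7.86 and 8.80 on WT normal arrays and 8.12, 7.48 and 7.89 on KO normal arrays. High-fat arrays read 7.90, 8.64 and 8.14 in WT and 8.20, 7.18 and 8.23 in KO. No pair of groups was separated, and the highest array was WT normal array 3 and the lowest KO high-fat array 2. The genotype difference was -0.37 on the normal diet (95% interval -1.10 to 0.35) and -0.35 on the high-fat diet (95% interval -1.08 to 0.37), and averaged over diets -0.36 (SE 0.23, limma adjusted p = 0.319). Each of these rested largely on 1 array: the first was -0.07 without WT normal array 3, the second -0.0066 without KO high-fat array 2, and the average -0.21 without the former array and -0.19 without the latter. The diet difference was 0.02 in WT and 0.04 in KO, with intervals from -0.71 to 0.75 and from -0.68 to 0.77. A further probe set of the gene (1446274_at) stayed between 3.95 and 4.08 on all 12 arrays, under the value of 5 that testing required, and was the 1 member probe set of 15 that was not tested. The genes whose arrays were most like the brighter probe set were Wdr13, Cacna2d1 and Baz2a, with r of 0.94, 0.93 and 0.92.

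Hk1 encodes hexokinase 1, which phosphorylates glucose at concentrations too low for glucokinase. The brighter of its probe sets (1437974_a_at) read 8.09, 7.91 and 8.73 on WT normal arrays and 8.19, 7.93 and 8.03 on KO normal arrays. The corresponding high-fat values were 7.91, 7.89 and 7.47 in WT and 8.03, 7.38 and 7.75 in KO. All 3 WT normal arrays were above all 3 WT high-fat arrays, though the lowest of the former and the highest of the latter nearly met. Among all genes, 10.2% were lower without overlap for the diet in WT, and Hk1 was the 1 member of 8 that was. The difference was -0.48 (SE 0.22, 95% interval -0.96 to -0.0036, limma adjusted p = 0.443), and without WT normal array 3 it was -0.24. The dimmer probe set (1420901_a_at) read 5.69, 5.33 and 5.90 in WT normal and 5.23, 5.29 and 4.9999 in WT high-fat, again without overlap, with a difference of -0.47 (SE 0.13, limma adjusted p = 0.239 among 28689 probe sets). For the genotype on the high-fat diet the probe sets differed in sign, at -0.04 for the brighter and 0.09 for the dimmer, with SEs of 0.22 and 0.13. A probe set that the annotation assigns to Hk1 together with Rpl17 and several pseudogenes was left out.

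Acot7, an acyl-CoA thioesterase that splits long-chain fatty acyl-CoA into free fatty acid and coenzyme A, had 1 probe set (1417094_at). It read 8.95, 8.40 and 10.09 on WT normal arrays and 9.13, 8.73 and 9.05 on KO normal arrays. With the high-fat diet the values were 8.89, 8.65 and 8.36 in WT and 8.47, 8.02 and 8.75 in KO. WT normal array 3 stood more than 1 log2 unit above the other WT normal arrays, and no pair of groups was separated. The diet difference was -0.52 in WT, -0.56 in KO and -0.54 averaged over genotypes (SE 0.25, 95% interval -1.08 to 0.01, limma adjusted p = 0.380). Without WT normal array 3 the difference in WT was -0.04 and the average -0.30. The genotype difference averaged over diets was -0.20 (SE 0.25, limma adjusted p = 0.624), and 0.04 without that array.

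Acot7, Hk1 and Ldha were high and low on the same arrays, which is why their promoters are shown. Pearson's r over the 12 arrays was 0.91 for Acot7 with Hk1 (Spearman's rho 0.81), 0.90 for Acot7 with Ldha (rho 0.83) and 0.86 for Hk1 with Ldha (rho 0.81). These values describe 12 arrays that share groups, scaling and extreme arrays. Without the 2 arrays farthest from the median of Hk1 (first pair) or of Ldha (other pairs), r was 0.66, 0.73 and 0.63. After removal of the group means it was 0.88, 0.87 and 0.82. WT normal array 3 was the highest and KO high-fat array 2 the lowest of 12 for each of these genes and for Slc16a1. For Slc16a1, r over 12 arrays was 0.60 with Acot7, 0.59 with Hk1 and 0.41 with Ldha, and after removal of the group means 0.73, 0.79 and 0.45. Without WT normal array 3 and KO high-fat array 2, the arrays farthest from the Slc16a1 median, r was -0.17 with Acot7 and with Hk1. For Ldha it was -0.06 without WT normal array 3 and KO normal array 1, the arrays farthest from the Ldha median. For Slc16a1 the relation therefore rests on the arrays left out. All 28 pairs of members were computed, and the next strongest in size was Oat with Mylk, at -0.66 (rho -0.61).

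The windows below are the 250 bases before each start site that RefSeq gives for these genes in the mouse build GRCm38.p6, written 5′ to 3′ on the strand of the gene. Capitals mark ACGTG on either strand, the core of the E-box CACGTG and a form of the core of hypoxia response elements. Other forms of the latter, such as GCGTG, were not searched for.
Ldha start site 1, chr7:46845554-46845803, plus strand: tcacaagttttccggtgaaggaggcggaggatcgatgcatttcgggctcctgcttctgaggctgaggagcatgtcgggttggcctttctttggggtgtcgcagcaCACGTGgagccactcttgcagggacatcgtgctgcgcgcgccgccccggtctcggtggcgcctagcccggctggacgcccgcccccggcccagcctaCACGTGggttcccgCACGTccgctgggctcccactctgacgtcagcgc
Ldha start site 2, chr7:46846832-46847081, plus strand: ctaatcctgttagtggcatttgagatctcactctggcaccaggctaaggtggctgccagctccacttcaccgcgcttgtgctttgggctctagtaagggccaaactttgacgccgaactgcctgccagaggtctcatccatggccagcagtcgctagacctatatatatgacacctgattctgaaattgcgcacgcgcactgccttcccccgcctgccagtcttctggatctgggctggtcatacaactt
Hk1 start site 1, chr10:62379909-62380158, minus strand: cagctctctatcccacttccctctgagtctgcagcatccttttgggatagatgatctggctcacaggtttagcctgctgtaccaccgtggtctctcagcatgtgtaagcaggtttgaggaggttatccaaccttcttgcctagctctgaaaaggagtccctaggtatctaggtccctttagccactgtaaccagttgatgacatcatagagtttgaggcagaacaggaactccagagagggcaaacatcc
Hk1 start site 2, chr10:62340422-62340671, minus strand: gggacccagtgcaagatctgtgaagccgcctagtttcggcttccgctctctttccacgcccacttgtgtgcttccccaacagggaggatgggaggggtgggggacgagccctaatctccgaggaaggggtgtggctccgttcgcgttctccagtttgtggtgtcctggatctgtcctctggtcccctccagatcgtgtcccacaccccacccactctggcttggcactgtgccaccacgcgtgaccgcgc
Acot7 start site 1, chr4:152185358-152185607, plus strand: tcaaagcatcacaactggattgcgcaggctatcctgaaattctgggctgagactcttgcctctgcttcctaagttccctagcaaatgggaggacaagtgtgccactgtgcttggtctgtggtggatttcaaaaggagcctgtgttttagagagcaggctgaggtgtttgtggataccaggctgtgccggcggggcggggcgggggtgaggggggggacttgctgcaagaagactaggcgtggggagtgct

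Ldha start site 1 held ACGTG 5 times when both strands were read, 4 of them inside its 2 copies of CACGTG, which begin 145 and 48 bases before the start. The window also held TGACGTCA, the palindromic cyclic AMP response element, 12 bases before the start. Neither Ldha start site 2, nor either Hk1 window, nor the Acot7 window held ACGTG. Among 32851 mouse windows of the same length, 16.6% held ACGTG, 6.02% held CACGTG and 1.55% held TGACGTCA on either strand. Of the other members, the Slc16a1 window (chr3:104638414-104638663) held CACGTG and the Mylk window (chr16:34784700-34784949) held ACGTG, and those of Oat and Neurog3 held neither; 7 of 8 members matched the promoter table. GGGCGG, the core of the GC box, was in 32.7% of all windows, and was present in the Acot7 and Slc16a1 windows and at Ldha start site 1, and in neither Hk1 window. A match is a run of letters and not a measured binding site.

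**Figure D2:**
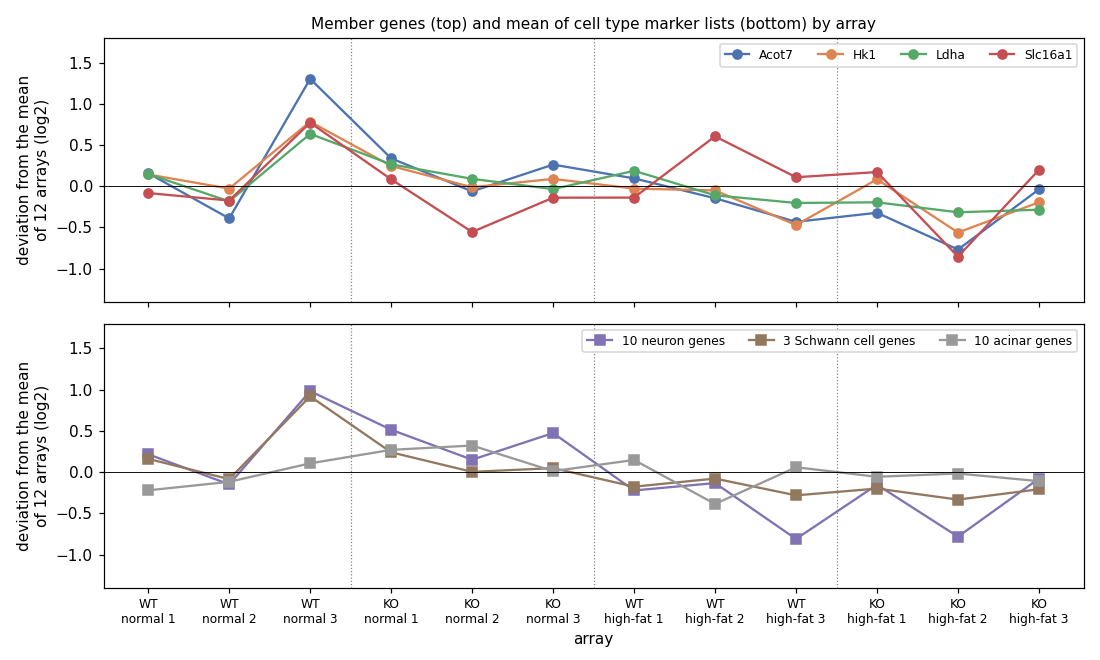
Deviation of each array from the mean of 12 arrays (y axis, log2) for Acot7, Hk1, Ldha and Slc16a1 (top) and for the mean of 10 neuron, 3 Schwann cell and 10 acinar genes (bottom), with arrays in group order on the x axis. WT normal array 3 is the highest point of all 4 genes and of the neuron and Schwann cell means, and not of the acinar mean.

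The means of marker lists of nerve cells moved with these genes. The genes whose values over the 12 arrays were most like Acot7 were Lynx1 (r = 0.97), Sncg (r = 0.96) and Nos1 (r = 0.96), those most like Hk1 were Fam89a (r = 0.98), Ahnak2 (r = 0.96) and Cyp2s1 (r = 0.96), and those most like Ldha were Ndrg2, Cckbr and Tppp3 (r = 0.92, 0.92 and 0.91). A list of 12 autonomic neuron genes, drawn up after these values were seen, had 10 genes bright enough to be tested; Chat, the acetylcholine-synthesising enzyme, was not among them. The mean of those 10 genes lay between 7.95 and 9.08 in WT normal, 8.25 and 8.61 in KO normal, 7.29 and 7.97 in WT high-fat, and 7.32 and 8.02 in KO high-fat. Not every gene of the list followed this mean. Vip ran from 8.06 to 12.98, whereas Snap25 stayed between 12.93 and 13.29. Th was highest, at 10.21, on WT high-fat array 3, where the mean was lowest. The r of the mean over 12 arrays was 0.93 with Hk1, 0.90 with Acot7 and 0.80 with Ldha, and after removal of the group means 0.95, 0.93 and 0.76. Slc16a1 also followed the list within groups, with r of 0.46 over 12 arrays and 0.83 after removal of the group means. Without the 2 arrays farthest from the median its r was 0.34, beside 0.86 for Hk1, 0.89 for Acot7 and 0.65 for Ldha. For Schwann cells, the glia of peripheral nerve, 3 of 5 listed genes were measured, Sox10, S100b and Gfap. The r of their mean over 12 arrays was 0.92 with Hk1, 0.93 with Acot7 and 0.90 with Ldha. Their mean lay between 5.96 and 6.96 in WT normal, 6.05 and 6.28 in KO normal, 5.76 and 5.96 in WT high-fat, and 5.71 and 5.84 in KO high-fat. The diet difference averaged over genotypes was below 0 for 10 of 10 neuron genes, with a median of -0.53 (all genes -0.01). In limma 0 of 10 passed and 6 had an unadjusted p under 0.05, beside 13.6% of all genes. The list and this comparison were both chosen after values had been seen, so these counts only describe the arrays. Vip, a neuropeptide, had a difference of -2.29 (SE 0.48, limma adjusted p = 0.0986) and Prph, a neurofilament-type protein of peripheral neurons, one of -1.42 (SE 0.43, limma adjusted p = 0.196). The part of nerve tissue in the values of these members was not tested, and in RNA of whole tissue fewer cells of a type and less RNA per cell cannot be told apart.

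Oat encodes ornithine aminotransferase, a mitochondrial enzyme that links ornithine to proline and glutamate. Its probe set (1416452_at) read 7.67, 7.31 and 7.55 on WT normal arrays and 7.44, 7.32 and 7.44 on KO normal arrays. On the high-fat diet it read 7.34, 6.98 and 7.72 in WT and 7.06, 6.96 and 6.80 in KO. The 3 KO high-fat arrays were below every array of both normal-diet groups, and WT high-fat array 2 was the only other array in their range. The difference for the diet in KO was -0.46 (SE 0.16, 95% interval -0.82 to -0.11, limma adjusted p = 0.526), and that for the genotype on the high-fat diet -0.41 (SE 0.16, limma adjusted p = 0.326), or -0.22 without WT high-fat array 3. Averaged over diets the genotype difference was -0.26 (SE 0.11, limma adjusted p = 0.162). This was the 1 member difference of 56 that passed under any alternative: without WT high-fat array 2 it was -0.35, with a limma adjusted p of 0.0326, and the adjusted p ranged from 0.0326 to 0.311 over 21 alternatives. Without that array the number of all genes that passed also grew, from 963 to 2500. The genes whose arrays were most like Oat were S100a16, Kctd13 and Fam83f, with r of 0.94, 0.92 and 0.91, and r of Oat with the neuron list was 0.31. With the mean of 25 genes of glycolysis and of lactate and pyruvate handling it was 0.84, and 0.78 after removal of the group means. With the mean of 3 genes of delta cells of the islet (Sst, Hhex and Rbp4) it was 0.77, and 0.82 after that removal.

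Mylk encodes myosin light chain kinase, the enzyme that starts contraction in smooth muscle. The brightest of its 3 probe sets (1425506_at) read 9.67, 9.69 and 10.02 on WT normal arrays and 10.02, 9.75 and 10.10 on KO normal arrays. After high-fat feeding it read 9.89, 10.21 and 9.57 in WT and 10.20, 9.89 and 10.22 in KO. Every pair of groups overlapped. The genotype difference was 0.16 on the normal diet, 0.21 on the high-fat diet and 0.19 averaged over diets (SE 0.12, 95% interval -0.07 to 0.45, limma adjusted p = 0.311). The other probe sets did not follow it: r over 12 arrays was -0.37 with 1425505_at and -0.10 with 1425504_at, and the averaged genotype difference was -0.14 (SE 0.13) and 0.04 (SE 0.09) there. The mean of 9 smooth muscle and pericyte genes lay between 8.13 and 8.46 on all 12 arrays and had an r of -0.39 with Mylk. For the neuron list, r with Mylk was 0.31 over 12 arrays and 0.86 after removal of the group means. Without the 2 arrays farthest from the median it was 0.03. Gucy1a2, Gpt2 and Med12l had the arrays most like the brightest probe set, with r of 0.92, 0.92 and 0.90.

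Aldh1a3 encodes an aldehyde dehydrogenase that makes retinoic acid and is used as a marker of failing, dedifferentiated beta cells. Its brightest probe set (1448789_at) read 7.62, 5.86 and 6.77 on WT normal arrays and 6.41, 8.22 and 8.27 on KO normal arrays. The high-fat arrays read 7.58, 8.10 and 7.69 in WT and 7.20, 7.49 and 9.05 in KO. WT high-fat was the tight group, with an SD of 0.27 against 0.88 in WT normal, 1.06 in KO normal and 1.00 in KO high-fat. WT normal had the lowest mean, at 6.75, beside 7.63 in KO normal, 7.79 in WT high-fat and 7.91 in KO high-fat, and no pair of groups was separated. The genotype difference on the normal diet was 0.89 (SE 0.60, 95% interval -0.44 to 2.21, limma adjusted p = 0.394), a mean fold of 1.85, and the diet difference in WT was 1.04 (SE 0.60, 95% interval -0.28 to 2.36, limma adjusted p = 0.580). Without WT normal array 2 these differences were 0.44 and 0.59, and without KO normal array 1 the former was 1.498. The genotype difference on the high-fat diet was 0.13, with an interval from -1.20 to 1.45. These intervals hold both no difference and a difference of more than 2-fold, so that neither could be shown with 3 arrays a group.

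The other Aldh1a3 probe sets ran in parallel over a narrower range. The r over 12 arrays was 0.90 between 1448789_at and 1417642_at, 0.73 between 1448789_at and 1427395_a_at, and 0.76 between the latter pair. Probe set 1427395_a_at read 6.53, 6.35 and 6.47 in WT normal and 6.56, 6.79 and 6.86 in KO normal, so that here the KO arrays were above the WT arrays without overlap, which held for 12% of all genes. The difference was 0.29 (SE 0.13, limma adjusted p = 0.220 among 28689 probe sets), and on the high-fat diet it was 0.05. For 1417642_at the genotype difference was 0.29 on the normal diet, 0.25 on the high-fat diet and 0.27 averaged over diets (SE 0.12, limma adjusted p = 0.151). The genotype difference had the same sign for all 3 probe sets on both diets, but they read the same arrays and are not separate evidence. On the high-fat diet the brightest gave -0.44 without KO high-fat array 3. The diet difference in WT was 1.04 for the brightest and 0.10 and 0.06 for the others. The genes whose arrays were most like the brightest probe set were 5330434G04Rik, Rdh14 and Dennd2d, with r of 0.93, 0.88 and 0.88.

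**Figure D3:**
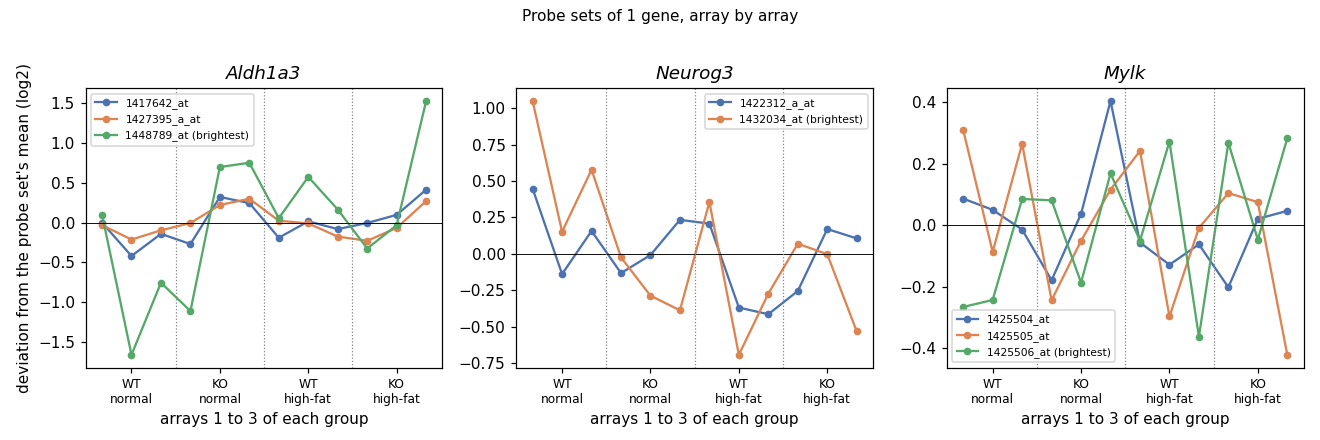
Deviation of each array from the mean of its probe set (y axis, log2) for the probe sets of Aldh1a3, Neurog3 and Mylk, with arrays 1 to 3 of each group from left to right. The Aldh1a3 probe sets share their high and low arrays (r from 0.73 to 0.90), and those of Mylk do not (r from -0.37 to 0.23).

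Neurog3 encodes neurogenin 3. Its brighter probe set (1432034_at) read 7.55, 6.65 and 7.08 on WT normal arrays and 6.47, 6.21 and 6.11 on KO normal arrays. High-fat values were 6.85, 5.80 and 6.22 in WT and 6.57, 6.50 and 5.97 in KO. WT normal was the high group, at a mean of 7.09 ± 0.45 (SD, n = 3), and the other 3 groups lay close together, at 6.26 ± 0.19 in KO normal, 6.29 ± 0.53 in WT high-fat and 6.34 ± 0.33 in KO high-fat. The WT normal arrays were above all KO normal and all KO high-fat arrays, and overlapped with WT high-fat. Among all genes, 22.2% were lower in KO normal than in WT normal without overlap, and Neurog3 was the 1 member of 8 that was.

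The genotype difference of Neurog3 on the normal diet was -0.83 (SE 0.28, 95% interval -1.44 to -0.21, limma adjusted p = 0.138), a 1.77-fold lower mean, and ranked 1442 of 15237 genes by p. In WT the diet difference was -0.80 (SE 0.28, 95% interval -1.41 to -0.18, limma adjusted p = 0.314). Among high-fat arrays the genotype difference was 0.05 (95% interval -0.57 to 0.66), and the interaction, which tests whether the genotype difference depended on the diet, was 0.87 (SE 0.40, limma adjusted p = 0.982). Leaving out 1 array at a time moved the genotype difference on the normal diet between -1.05 and -0.60. The dimmer probe set (1422312_a_at) read 5.79, 5.21 and 5.503 in WT normal and 5.21, 5.34 and 5.58 in KO normal, with overlap and a difference of -0.12 (SE 0.19, limma adjusted p = 0.725 among 28689 probe sets). Its r with the brighter probe set was 0.57, and its diet difference in WT was -0.35 (SE 0.19). Kctd10, Col4a1 and Serinc2 had the arrays most like the brighter probe set, with r of 0.95, 0.94 and 0.94. The r of Neurog3 with Aldh1a3 was -0.49 (rho -0.67), and -0.19 after removal of the group means.

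The means of marker lists of endocrine cells moved with Neurog3 to differing degrees, and so did another list. Of 6 genes listed for alpha cells, the glucagon cells of the islet, 3 were measured (Gcg, Irx2 and Ttr), and their mean had an r of 0.92 with Neurog3 over 12 arrays (rho 0.91) and of 0.86 after removal of the group means. That mean lay between 12.81 and 13.02 in WT normal, 12.67 and 12.77 in KO normal, 12.67 and 12.85 in WT high-fat, and 12.56 and 12.87 in KO high-fat. For the mean of 16 genes of mature beta cells r was 0.81 (rho 0.87), and 0.68 after removal of the group means, with 12.92 to 12.98 in WT normal and 12.83 to 12.89 in KO normal. For 3 delta cell genes r was 0.66, and 0.57 after removal of the group means. It was 0.56 and 0.38 for 2 PP cell genes, Ppy and Pyy. Without the 2 arrays farthest from the median, r was 0.85 for alpha, 0.74 for beta, 0.91 for delta and -0.015 for PP cell genes. The mean of 25 genes of glycolysis and of lactate and pyruvate handling had an r of 0.75 (rho 0.85) with Neurog3. After removal of the group means it was 0.70. The r of this list with Oat, given above, was higher. The part of endocrine cells in the Neurog3 values was not tested.

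**Figure D4:**
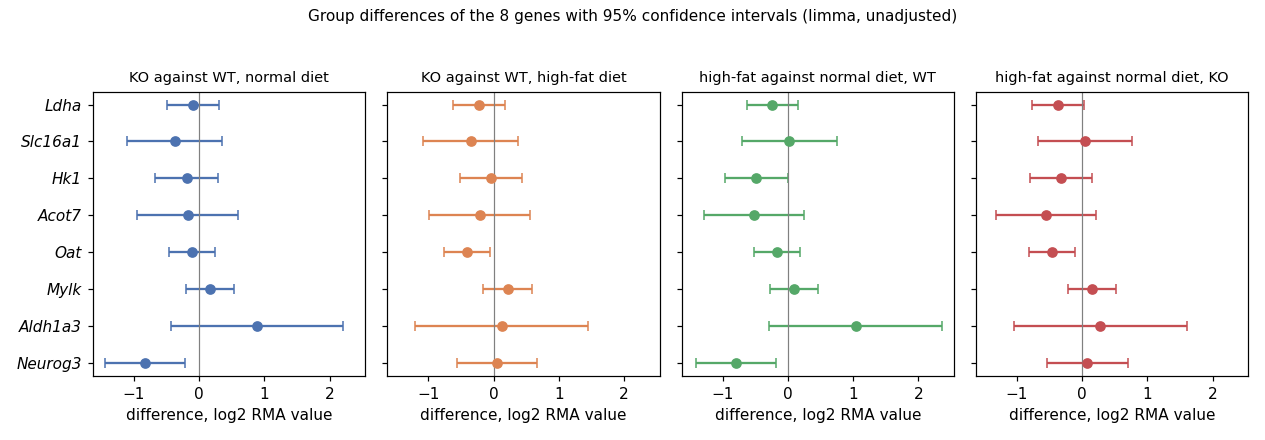
Difference between groups (x axis, log2 RMA value) of the 8 genes (y axis) in the 4 comparisons of 2 groups; points are limma estimates and bars unadjusted 95% intervals. The widest intervals are those of Aldh1a3, from -0.44 to 2.21 for KO against WT on the normal diet, and the intervals of Neurog3 lie below 0 in that comparison and for the diet in WT.

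Other genes of the same kinds were read from 4 lists. Of 26 further disallowed genes tested, 1 rose in KO against WT on the normal diet and 0 fell, with a median of -0.11 (all genes -0.05). Among all genes 0.84% passed there. The gene that rose was Cat, catalase, which breaks down hydrogen peroxide: its difference was 0.59 (SE 0.12, limma adjusted p = 0.0452) on the normal diet, 0.36 (limma adjusted p = 0.240) on the high-fat diet and 0.48 (limma adjusted p = 0.0117) averaged over diets. Maf and Igf1, a transcription factor and a growth factor, had differences on the normal diet of 0.72 and 0.88 (limma adjusted p = 0.0939 and 0.111). Cxcl12, a chemokine, had a difference of -1.02 (SE 0.43, limma adjusted p = 0.202) there, and 19 of the 26 genes were below 0. For the diet in WT the 26 genes had a median of -0.20 (all genes -0.02), 6 were above 0, 0 passed in limma and 6 had an unadjusted p under 0.05, beside 11.1% of all genes. The mean of the 26 genes lay between 8.11 and 8.55 in WT normal and between 8.12 and 8.22 in WT high-fat, and its r was 0.85 with Hk1 and 0.84 with Ldha over 12 arrays.

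Of 11 progenitor and dedifferentiation genes tested beside Aldh1a3 and Neurog3, 0 passed in limma in any of the 7 comparisons, and between 0 and 3 had an unadjusted p under 0.05. Among all genes that share ran from 4.97% to 28.6% over these comparisons. Mycl, a member of the Myc family that dedifferentiated beta cells have been found to express, had a genotype difference on the normal diet of 0.34 (SE 0.10, limma adjusted p = 0.0986). Myc, of the same family, differed the other way, by -0.90 on the high-fat diet (SE 0.32, limma adjusted p = 0.287) and by -0.62 averaged over diets (SE 0.23, limma adjusted p = 0.107). The median genotype difference of the list was 0.09 on the normal diet (all genes -0.05) and 0.04 on the high-fat diet (all genes -0.03). Of 16 genes of mature beta cells, 0 passed in limma in any comparison and between 0 and 5 had an unadjusted p under 0.05, beside the same 4.97% to 28.6% of all genes. Their median genotype difference was -0.08 on the normal diet and -0.03 on the high-fat diet. Nkx6-1, a transcription factor that maintains beta-cell identity, had a difference of -0.39 (SE 0.15, limma adjusted p = 0.168) on the normal diet and of -0.36 (SE 0.10, limma adjusted p = 0.0607) averaged over diets, and Neurod1 one of 0.18 (SE 0.05, limma adjusted p = 0.0625) in that average.

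Of 25 other genes of glycolysis and of lactate and pyruvate handling, 1 rose and 0 fell in KO against WT averaged over diets. The list had a median of -0.11 there (all genes -0.04), and 6.32% of all genes passed. The gene that rose was Mdh1, the cytosolic malate dehydrogenase of the malate-aspartate shuttle, with a difference of 0.22 (SE 0.05, limma adjusted p = 0.0350). The phosphofructokinase genes Pfkl and Pfkm had differences of -0.38 (SE 0.11, limma adjusted p = 0.0575) and -0.30 (SE 0.08, limma adjusted p = 0.0578). In the other 6 comparisons 0 of the 25 genes passed in limma, and between 1 and 8 had an unadjusted p under 0.05, beside 4.97% to 22.1% of all genes. For the diet averaged over genotypes, Aldoc, the aldolase of nervous tissue, had the smallest p of the list, with a difference of -0.55 (SE 0.15, limma adjusted p = 0.169).

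Markers of other cell types were read beside the members. The acinar list was above 0 for 10 of 10 genes in KO against WT on the normal diet, with a median of 0.26. In limma 0 of these passed and 7 had an unadjusted p under 0.05, beside 22.1% of all genes. The array means of the acinar list were 12.23 to 12.56 in WT normal and 12.46 to 12.77 in KO normal. Its r over 12 arrays was between -0.31 and 0.43 with each of the 8 members. The endothelial list was below 0 for 7 of 7 genes in KO against WT averaged over diets, with 2 past the test, beside 6.32% of all genes. Its array means were 9.41 to 9.61 in WT normal, 9.24 to 9.30 in KO normal, 9.56 to 9.69 in WT high-fat and 9.30 to 9.48 in KO high-fat, and its r with Neurog3 was 0.49, and 0.88 after removal of the group means. The stromal list, of 6 collagen and fibroblast genes, was below 0 for 6 of 6 in the diet in WT, with a median of -0.48. In limma 0 of these passed and 3 had an unadjusted p under 0.05, beside 11.1% of all genes. The array means of the stromal list were 8.33 to 9.15 in WT normal, 8.32 to 8.68 in KO normal, 7.99 to 8.49 in WT high-fat and 8.12 to 8.91 in KO high-fat. Their r was 0.83 with Hk1, 0.69 with Ldha, 0.67 with Acot7 and 0.66 with Neurog3. The part of these cell types in the members' values was not tested.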

How the data were processed

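Each deposited value is the log2 RMA summary of a probe set on an array, made from biotin-labelled cRNA of 4 µg total RNA per the labels; the submitters' processing notes name RMA and Partek 6.6, without options. RMA gives the arrays 1 common distribution, so a shift of most genes 1 way would be hidden, and dim probe sets understate differences. Genes were named from the platform annotation, and each was represented by its probe set with the highest mean over 12 arrays. Genes that exceeded 5 on 3 or more arrays, 15237 in all, were tested with limma 3.58.1 in R 4.3.3, as 4 group means, and p-values were adjusted by Benjamini and Hochberg's method over all genes; the 28689 probe sets that did so were tested in a separate fit. On simulated data a log2 change of 1 was recovered in 82% of genes and of 2 in 96% for KO against WT on the normal diet, with 14 false calls. Noise was drawn separately for each gene and array, so deviations shared by a whole array were absent. The members' SEs in that comparison ran from 0.16 to 0.60, above the median of 0.12 over all genes, so these shares need not hold for them. The 7 comparisons are those named in the text; the diet averaged over genotypes was added after the values had been seen. The members and lists were chosen with earlier results of these data known. Genes were named by rule: all members, up to 4 genes of each list and comparison by smallest p, and the 3 genes with the highest Pearson's r to a member; the neuron genes named fall outside it and were chosen after their values were seen. Alternatives covered scaling between arrays, the filter, probe sets, the variance prior, the groups fitted, replicate blocks and leaving out each array. Deviations of same-numbered KO arrays had r of 0.29, 0.38 and 0.14 across diets, beside 0.05, 0.10 and -0.16 for WT arrays. A pairing of KO arrays rests on these low values and on no label. Start sites were taken from RefSeq. Plots used matplotlib 3.10.9 (Python 3.11.15).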

Additional observations from a re-analysis of the deposited data

Results flagged for a closer look

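The dimmer Hk1 probe set (1420901_a_at) had a genotype difference of -0.24 on the normal diet, where every KO array was below the WT mean, and of 0.087 on the high-fat diet, where every KO array was above it. The interaction, the test of that difference itself, was 0.33 (SE 0.19, limma adjusted p = 0.980 among 28689 probe sets) and did not pass. The brighter Hk1 probe set gave -0.19 and -0.04 in the same comparisons.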

How the results depend on the processing

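Of the 56 member differences, 1 passed the threshold under any alternative (Oat without WT high-fat array 2) and 23 changed sign under at least 1, each of the latter with an interval that holds 0; the sign changed in 57 of 1200 recomputed values, and the cause was not tested. With the mean of its probe sets Mylk was -0.0046 for KO against WT on the normal diet and -0.071, -0.0019 and -0.036 for the diet in WT, in KO and averaged. Hk1 for KO against WT on the high-fat diet was 0.019 with cyclic loess, 0.0012 with median centring and 0.023 with the mean of its probe sets, and the Slc16a1 interaction was -0.016 and -0.0021 with the first pair of these. Ranges that crossed 0 when 1 array was left out were these. For KO against WT on the normal diet these were -0.28 to 0.12 for Ldha, -0.36 to 0.051 for Hk1 and -0.55 to 0.30 for Acot7, each above 0 only without WT normal array 3. On the high-fat diet they were -0.19 to 0.13 for Hk1, -0.44 to 0.48 for Aldh1a3 and -0.20 to 0.33 for Neurog3, and averaged over diets -0.20 to 0.0051 for Hk1 and -0.38 to 0.040 for Acot7. For the diet in WT they were -0.19 to 0.32 for Slc16a1, -0.35 to 0.017 for Oat and -0.065 to 0.25 for Mylk, in KO -0.14 to 0.39 for Slc16a1, -0.34 to 0.63 for Aldh1a3 and -0.034 to 0.27 for Neurog3, and averaged -0.072 to 0.20 for Slc16a1. For the interaction they were -0.35 to 0.061 for Ldha, -0.28 to 0.37 for Slc16a1, -0.091 to 0.32 for Hk1, -0.51 to 0.34 for Acot7 and -0.10 to 0.21 for Mylk. The replicate block and the pairing of KO arrays as a random block changed no call of a member. Counts over all genes moved more. For KO against WT on the normal diet (128 genes) they were 238 with median centring, 69 with the mean of probe sets, 336 with a variance trend, 6 with only the groups compared, 9 with the replicate block and 2 to 223 without 1 array, and 546 probe sets passed. On the high-fat diet (4 genes) they were 8 with centring, 63 with the trend, 0 with only the groups compared, 2 with the replicate block and 0 to 272 without 1 array, and 81 probe sets passed. Averaged over diets (963 genes) they were 524 with the replicate block, 352 with KO pairs as a random block and 255 to 2500 without 1 array, and 2896 probe sets passed. For the diet in WT (12 genes) they were 24 with the trend, 1 with only the groups compared, 0 with the replicate block and 0 to 11 without 1 array. For the diet in KO (0 genes) the KO pairs gave 10, and for the diet averaged over genotypes (30 genes) the replicate block gave 0, the KO pairs 84 and leaving out 1 array 0 to 30. With 3 arrays a group, the median SE of a difference was 0.12, and those of Aldh1a3, at 0.60, could show only large changes.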
